A study of Mus musculus with 6 samples.

Results

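Ebf1, Dysf, Smtn, Tgm1, Akr1c18 and Gcnt4 are 6 of the 21362 genes in a count table of mouse CD4+ T cells. Their proteins work inside the cell or at its inner membrane face, and none has a classic role in helper T cells. They were chosen by name because earlier results on the same counts showed a several-fold range between libraries, so their ranges are a description here and carry no test. The choice set no numerical limit on the range. Gcnt4 had the smallest range of the 6, 4.33-fold, and its neighbours in the order of ranges were Slamf6 at 4.36-fold and Clspn at 4.31-fold, which are not among the 6. The study compared sorafenib-treated regulatory T cells with cells that had not received sorafenib, a small-molecule inhibitor of several protein kinases. RNA sequencing was done on 6 libraries, all labelled as CD4+ T cells and numbered 1 to 6 in their titles. The labels tie no library to treatment, strain, age, culture or mouse, so no group was formed, no treated cells were compared with untreated cells, and each library is described on its own.

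The 6 genes do not form a pathway, and most are best known from another tissue. Tgm1 encodes transglutaminase 1, a calcium-dependent enzyme anchored to the membrane of keratinocytes that cross-links proteins into the cornified envelope of skin. Smtn encodes smoothelin, an actin-binding protein of contractile smooth muscle, and Dysf encodes dysferlin, a protein with calcium-binding C2 domains that helps to reseal torn plasma membrane in muscle. Akr1c18 encodes a 20-alpha-hydroxysteroid dehydrogenase, which inactivates progesterone in the corpus luteum. Gcnt4 encodes a Golgi enzyme that starts the core 2 branch of O-linked glycans. Ebf1 is a transcription factor needed to specify the B cell lineage, where it acts upstream of and together with Pax5.

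The libraries held from 32435799 to 36316162 counts over genes. A level is given in CPM, the usual scaling of counts to a library total, here corrected for composition, and its 95% interval is exact (Clopper-Pearson) and covers counting error only. Whether separate cultures or mice gave the libraries is not in the labels, so the spread between them may be technical in part. No pair of libraries agreed within counting error, with a chi-square per gene of at least 3.89 where counting error alone gives a value near 1. All 14 T cell marker genes examined were present, with a summed level of 3990 to 4528 CPM, and 0 of them spanned 2-fold over the libraries. Of all genes averaging 1 CPM or more, 10.5% did, and of those averaging 10 CPM or more, 3.33% did. The second share is the nearer one for these abundant markers, of which the lowest, Tcf7, averaged 140 CPM. All 6 regulatory T cell markers were present, and 2 spanned 2-fold, Ctla4 and Il10, Ctla4 not so with plain totals. Ctla4, the inhibitory receptor and the most abundant of them by FPKM, stood at 1526, 1559, 1548, 791, 771 and 809 CPM, and Foxp3, the defining transcription factor, at 7.37, 7.66, 7.86, 11.9, 13.4 and 11.2 CPM. The 12 myeloid markers summed to 11.6 to 15.0 CPM, most of it Cd68, and values for markers of other cell types stand beside the gene they touch. In bulk RNA, more cells that express a gene and more RNA per cell cannot be told apart.

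All 6 genes had an entry in a RefSeq table of promoters for the GRCm38.p6 assembly, with 10 start sites between them. GRCm38.p6 precedes GRCm39, the assembly named in the submitters' processing notes, so the positions below belong to GRCm38.p6 only. Shown are the 250 bases before the farthest upstream start of 4 genes, read 5′ to 3′ on the gene's strand. Tgm1 and Dysf were picked as the pair of closest pattern over the libraries, and Gcnt4 and Ebf1 as the pair of least similar pattern. Capitals mark complete matches, on either strand, to TGANTCA (AP-1), TTCNNNGAA (STAT), GGAAAA (core of NFAT sites), TGTGGT (RUNX) or GGGCGG (GC box), where N is any base.
Tgm1 chr14:55713493-55713742 minus strand: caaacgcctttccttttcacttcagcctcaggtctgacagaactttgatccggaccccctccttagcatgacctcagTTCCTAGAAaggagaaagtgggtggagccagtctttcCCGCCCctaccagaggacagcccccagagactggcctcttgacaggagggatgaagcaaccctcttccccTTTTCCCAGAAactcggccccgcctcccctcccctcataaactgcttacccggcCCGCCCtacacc
Dysf chr6:84008348-84008597 plus strand: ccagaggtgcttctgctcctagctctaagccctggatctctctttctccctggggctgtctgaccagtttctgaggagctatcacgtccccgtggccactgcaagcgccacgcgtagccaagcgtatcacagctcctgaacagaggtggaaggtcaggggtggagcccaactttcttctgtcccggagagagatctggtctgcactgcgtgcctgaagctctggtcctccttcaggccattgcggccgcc
Gcnt4 chr13:96924094-96924343 plus strand: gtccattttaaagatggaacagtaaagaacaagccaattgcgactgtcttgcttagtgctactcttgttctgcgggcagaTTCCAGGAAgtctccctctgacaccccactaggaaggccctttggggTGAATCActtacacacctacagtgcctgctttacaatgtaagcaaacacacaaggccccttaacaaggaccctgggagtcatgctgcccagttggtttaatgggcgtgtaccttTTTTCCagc
Ebf1 chr11:44617850-44618099 plus strand: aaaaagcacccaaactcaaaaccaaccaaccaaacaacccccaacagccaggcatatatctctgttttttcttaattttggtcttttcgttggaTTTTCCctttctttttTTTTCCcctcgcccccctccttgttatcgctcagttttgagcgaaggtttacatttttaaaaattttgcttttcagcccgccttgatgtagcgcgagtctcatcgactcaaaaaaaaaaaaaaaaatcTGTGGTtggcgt
The Tgm1 stretch held 2 STAT matches, beginning at positions -173 and -64 counted from the start, and the second overlapped an NFAT match beginning at -66. Gcnt4 held an AP-1 match at -123, a STAT match at -170 and an NFAT match at -9. The bases just after this Gcnt4 start were found in no Gcnt4 transcript of the GENCODE M21 annotation. Those after its other start were, and the window of that start held GC box matches only. Ebf1 held 2 NFAT matches, at -156 and -140, and a RUNX match at -12. Dysf held no complete match before this start, and its GC box runs across the start itself. Over the whole windows of 300 bases, which reach 50 bases past the start, an NFAT match lay in 5 of the 10 windows of the 6 genes and in 23.4% of 32851 windows in the table. The corresponding numbers were 6 of 10 and 35.7% for the GC box, 2 of 10 and 8.30% for STAT, 1 of 10 and 7.81% for AP-1, and 1 of 10 and 16.8% for RUNX. Neither the palindromic EBF motif, found in 0.904% of windows, nor TATAAA, found in 13.6%, lay in any of the 10. These are matches of letters and not evidence of binding, and the 10 windows are too few to set against the table.

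Tgm1, the skin cross-linking enzyme, was the most abundant of the 6 by CPM, and by median once gene length was taken into account. It stood at 65.4, 64.6, 60.3, 12.6, 13.9 and 14.5 CPM in libraries 1 to 6, from 476 to 2234 reads. Libraries 1, 2 and 3 were high and libraries 4, 5 and 6 were low, with nothing between 14.5 and 60.3 CPM. The highest library was 5.21-fold above the lowest (95% counting interval 4.71 to 5.77). This interval, like those below for the other 5 genes, takes no account of the 2 libraries having been picked as extremes. Smtn, the smooth muscle cytoskeletal gene, stood at 43.2, 39.2, 42.9, 7.01, 6.90 and 8.01 CPM, from 240 to 1496 reads. Libraries 1 and 3 differed by less than their intervals, as did libraries 4 and 5, and the widest step lay between 39.2 and 8.01 CPM. Its highest library was 6.26-fold above the lowest (5.45 to 7.21).

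Dysf, the membrane repair gene, stood at 24.7, 24.4, 21.0, 4.38, 4.86 and 5.20 CPM. Library 3 was set apart from library 2 by separate intervals, 19.5 to 22.6 CPM against 22.8 to 26.1 CPM, and libraries 4, 5 and 6 overlapped. Its highest library was 5.65-fold above the lowest (4.77 to 6.72). Akr1c18, the progesterone-inactivating reductase, stood at 17.8, 18.8, 16.9, 4.85, 3.48 and 4.61 CPM. Unlike the other genes it was highest in library 2, but its intervals there and in library 1 overlapped, 17.4 to 20.3 CPM against 16.3 to 19.3 CPM. The low value of Akr1c18 in library 5, with an interval of 2.89 to 4.16 CPM, overlapped that of library 6, 3.93 to 5.37 CPM. The ratio of highest to lowest was 5.41 (4.45 to 6.62), and the range was 4.04-fold without library 5.

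Gcnt4, the glycan-branching enzyme, stood at 22.9, 16.1, 20.4, 5.30, 5.23 and 5.74 CPM. Library 2 was lower than libraries 1 and 3 beyond counting error, with an interval of 14.8 to 17.5 CPM against 18.9 to 22.0 CPM in library 3. Libraries 4, 5 and 6 did not differ beyond their intervals. The highest library was 4.37-fold above the lowest (3.71 to 5.17). Ebf1, the B lineage factor, was the least abundant, at 15.4, 14.4, 12.0, 2.08, 2.85 and 2.33 CPM from 79 to 497 reads, and ranged the farthest, 7.38-fold (5.81 to 9.49). Libraries 4, 5 and 6 had intervals from 1.65 to 3.46 CPM in all, and the lowest bound among libraries 1, 2 and 3 was 10.9 CPM.

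**Figure D1:**
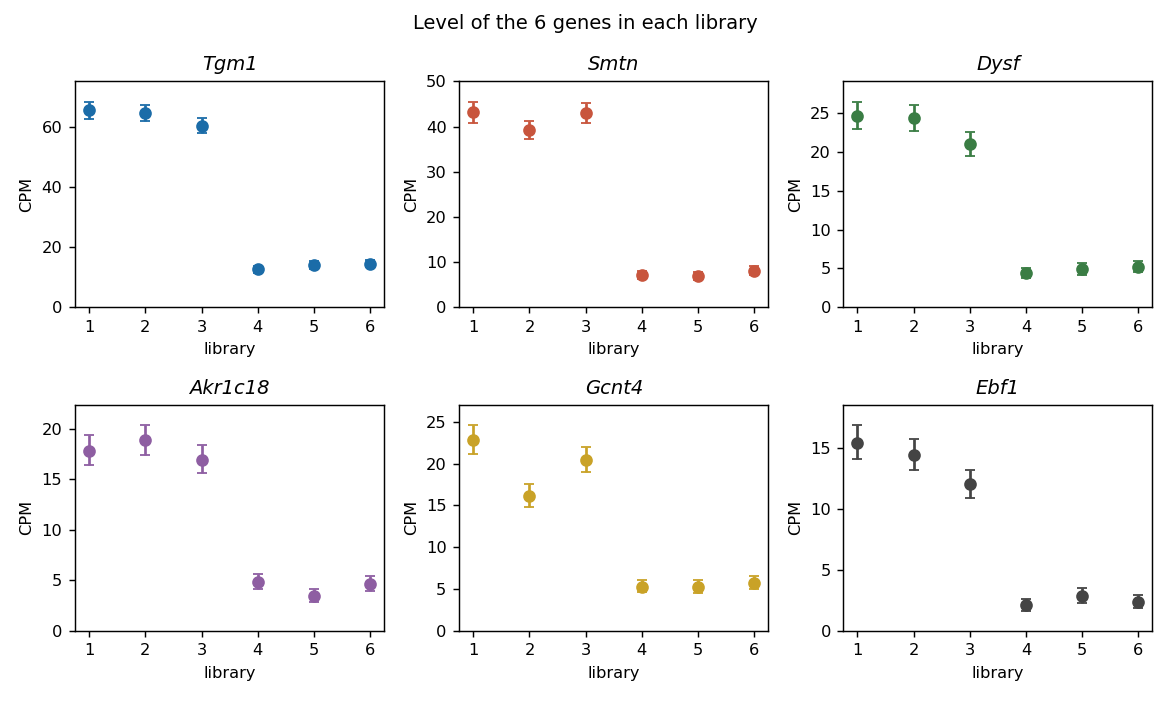
Level in CPM (vertical axes, from 0) of each of the 6 genes in libraries 1 to 6 (horizontal axes). Points are single libraries and bars are exact 95% counting intervals. In all 6 panels libraries 1, 2 and 3 lie above libraries 4, 5 and 6, with the widest gap in fold for Smtn, 4.89-fold between 39.2 and 8.01 CPM.

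Every one of the 6 genes had libraries 1, 2 and 3 as its 3 highest, also with DESeq2 size factors, plain totals, the deposited FPKM values, a smaller prior count or mitochondrially encoded genes left out. The step between the third and the fourth library in order of level ran from 2.81-fold for Gcnt4 to 4.89-fold for Smtn. The next widest step within a gene was at most 1.33-fold, for Akr1c18. Such an order is common in these libraries. Of 8371 genes that averaged 10 CPM or more, 2810, or 33.6%, had the same 3 highest libraries, and in 2495, or 29.8%, these 3 were the lowest. Down to an average of 1 CPM, which takes in Ebf1, the shares were 29.1% and 30.3%. Genes that had this order and also spanned 4-fold or more made up 0.239% at 10 CPM and 0.764% at 1 CPM. The distance between the 2 sets of values is what the 6 genes were chosen for.

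For ranges across all genes, log2 CPM was computed with a prior count of 2, which shrinks the ratios slightly. On that scale the ranges were 5.19-fold for Tgm1, 6.21-fold for Smtn, 5.59-fold for Dysf, 5.34-fold for Akr1c18, 4.33-fold for Gcnt4 and 7.21-fold for Ebf1. All 6 ranged 4-fold or more, although Gcnt4 fell to 3.87-fold without library 1 and to 3.98-fold with plain totals, and Gcnt4 and Ebf1 to 3.65-fold and 3.04-fold when 0.1 was added as a pseudocount to the deposited FPKM. Of the 8371 genes averaging 10 CPM or more, 24 or 0.287% did so, and 279 or 3.33% spanned at least 2-fold. Their median gene ranged 1.22-fold. Ebf1, with a mean of 8.17 CPM, is outside that set. Of the 11516 genes averaging 1 CPM or more, which include it, 150 or 1.3% spanned 4-fold and 1204 or 10.5% spanned 2-fold. In the order of ranges over genes at 10 CPM or more, Smtn was 6th, Dysf 7th, Akr1c18 9th, Tgm1 10th and Gcnt4 20th, and Ebf1 was 28th of the 11516. The 6 genes were chosen for these ranges, so nothing follows from their share.

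**Figure D2:**
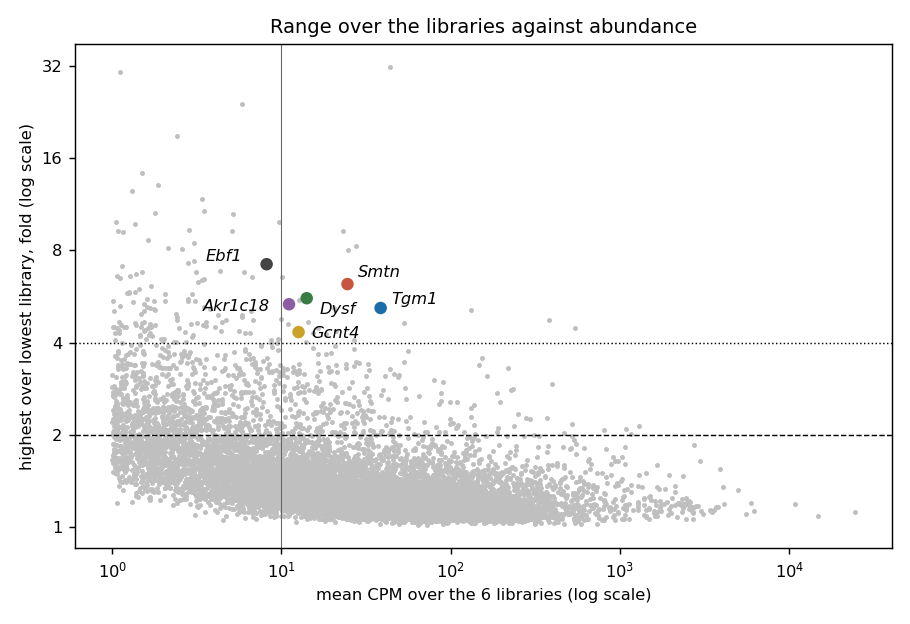
Highest over lowest library in fold (vertical axis, log scale) against mean CPM (horizontal axis, log scale) for the 11516 genes that averaged 1 CPM or more. Coloured points are the 6 genes, grey points the others, the dashed and dotted lines mark 2-fold and 4-fold, and the vertical line marks 10 CPM. The 6 genes lie above the 4-fold line at means from 8.17 to 38.5 CPM, and low genes range more widely than abundant ones.

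Levels of different genes can be compared only after division by gene length. The deposited FPKM values, which divide counts by gene length and library total, ran for Tgm1 from 4.05 in library 4 to 19.3 in library 1 and for Akr1c18 from 3.03 in library 5 to 15.0 in library 2. Smtn ran from 1.18 to 6.78 FPKM, Dysf from 0.558 to 2.89 FPKM and Gcnt4 from 0.742 to 2.97 FPKM. Ebf1 ran from 0.0545 to 0.369 FPKM. Tgm1 lay above Akr1c18 in libraries 1, 2, 3, 5 and 6 and below it in library 4. Akr1c18 lay above Smtn in all 6 libraries, and Smtn above Gcnt4 and Dysf. Dysf was the lower of that pair in libraries 1, 3, 4, 5 and 6 and the higher in library 2. Ebf1 was the lowest in each library.

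The place of Ebf1 on that scale depends on the gene length used. The length behind the deposited FPKM values, obtained from the ratio of counts to FPKM, was 39939 bases for Ebf1, and only 61 of the 21362 genes had a longer one. The longest Ebf1 transcript in GENCODE M21 has 5981 bases and its annotated exons cover 9756 bases, so the deposited length was 4.09 times the exons of that annotation. For the other 5 genes this ratio was 1.02 for Tgm1, 1.40 for Smtn, 0.983 for Dysf, 0.993 for Akr1c18 and 1.45 for Gcnt4. Divided by the longest GENCODE transcript instead, Ebf1 ran from 0.348 to 2.57 CPM per kilobase, Dysf from 0.643 to 3.63, Gcnt4 from 1.03 to 4.49 and Tgm1 from 4.40 to 22.9. Ebf1 was still the lowest by its median of 1.24 CPM per kilobase, against 1.93 for Dysf. Where along this length the Ebf1 reads lie is not recorded in a count per gene.

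The patterns of the 6 genes were compared by the root mean square difference of log2 CPM over the 6 libraries, after each gene's own median was taken off. Tgm1 and Dysf were the closest pair, at 0.05 log2 units. Gcnt4 and Ebf1 were the most distant, at 0.42, with Gcnt4 at 1.24, 0.74, 1.08, -0.85, -0.87 and -0.74 log2 units from its median and Ebf1 at 1.38, 1.29, 1.03, -1.47, -1.03 and -1.31. The deviations of Tgm1 were 1.15, 1.13, 1.03, -1.23, -1.08 and -1.03, and those of Dysf 1.24, 1.22, 1.0, -1.25, -1.1 and -1.0. All 15 pairs were closer than the median distance of any of the 6 to named genes averaging 10 CPM or more, which was 0.94 to 1.26 log2 units. This follows from the choice of wide ranges and a shared order.

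The nearest patterns were looked for among 8214 other named genes averaging 10 CPM or more (8215 for Ebf1). Tgm1 was nearest to Dysf, then to Spp1, which encodes osteopontin, at 0.06 log2 units, and Gipr, an incretin hormone receptor gene, at 0.08. Dysf had the same neighbours, with Spp1 at 0.08 and Gipr at 0.12. Smtn and Ebf1 were both nearest to Prf1, the gene of the cytolytic pore protein perforin, each at 0.12 log2 units, and next came Spp1 and Dysf at 0.16 to 0.17 for either gene. Prf1 stood at 17.7, 16.7, 17.2, 2.66, 3.36 and 3.15 CPM. Akr1c18 was nearest to Gzmb, the granzyme B gene, at 0.12, followed by Tpbg at 0.18 and the chemokine receptor gene Cxcr1 at 0.19. Near to Gcnt4 were Emilin2, a matrix glycoprotein gene, at 0.18 and Tgfb3, a cytokine gene, at 0.19. Distances over 6 libraries say nothing of shared control.

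**Figure D3:**
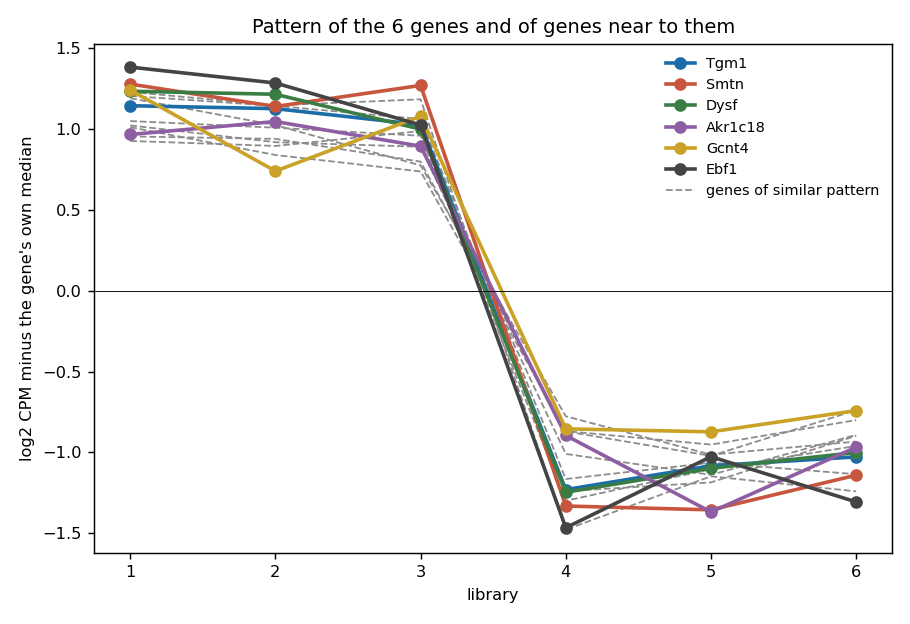
Deviation of log2 CPM from each gene's median (vertical axis) in libraries 1 to 6 (horizontal axis) for the 6 genes (coloured) and for the genes near to them in pattern that the text names (grey dashes). Lines join the values of 1 gene and imply no order of libraries. All lines lie above 0 in libraries 1, 2 and 3 and below 0 in libraries 4, 5 and 6, and Gcnt4 dips to 0.74 in library 2.

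Few genes of skin were found beside Tgm1, and some of those ran with it. Tgm2, the widely expressed tissue transglutaminase, was the only other member of its family that averaged 1 CPM or more and was far more abundant, at 649, 677, 659, 341, 366 and 415 CPM. Its range of 1.99-fold was just under 2-fold, and just over it with DESeq2 size factors. Tgm4 had at most 1.21 CPM, and the other 6 members, among them Tgm3 and Tgm5 of skin and hair, had at most 0.115 CPM in any library. Of 20 names of the cornified envelope list, 10 were in the table and 2 averaged 1 CPM or more. Of these 2, 0 spanned 2-fold, against 10.5% of all genes at that average. Sbsn, the epidermal secreted protein suprabasin, stood at 61.1, 61.6, 53.7, 31.7, 35.8 and 31.3 CPM, a 1.97-fold range in the same direction as Tgm1. Evpl, the envelope scaffold envoplakin, stayed between 2.75 and 3.80 CPM, and Krtdap had at most 0.116 CPM. Dsp, which encodes the desmosome protein desmoplakin, was scarce and had the same 3 highest libraries as Tgm1, at 1.54, 1.04, 0.832, 0.396, 0.374 and 0.647 CPM from 164 reads in all. Keratinocyte markers summed to 44.6 to 54.4 CPM, most of it from Perp, at 15.9 to 23.3 CPM, and Sfn, at 21.2 to 24.7 CPM, which many cells express. Lgals7, an epithelial galectin gene, added 3.70 to 5.79 CPM and Krt10, a keratin of differentiated epidermis, at most 1.90 CPM. The defining keratins Krt5 and Krt14 and the factor Trp63 had no row in the table, and Krt1 had at most 0.0322 CPM.

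Most genes of the smooth muscle cytoskeleton were absent or nearly steady. The Smtn relative Smtnl2 was more abundant and steadier, at 91.1, 96.5, 87.2, 76.6, 74.1 and 79.6 CPM, a 1.30-fold range. Of 22 names for the smooth muscle cytoskeleton and its regulators, 11 averaged 1 CPM or more. Of these, 1 spanned 2-fold and 0 spanned 4-fold, against 10.5% and 1.3% of all genes at that average. Their median was 1.19-fold, against 1.29-fold for all genes. The 1 that spanned 2-fold was Tagln, which encodes the actin-bundling protein transgelin, at 1.03, 1.79, 1.58, 2.95, 1.55 and 1.57 CPM, highest in library 4 where Smtn was low. Cnn2 and Flna, actin-binding proteins of non-muscle cells, ranged 1.19-fold and 1.39-fold and were higher in libraries 4, 5 and 6, and Cnn3 ranged 1.31-fold. Below 1 CPM, Mylk, the myosin light chain kinase gene, had the same 3 highest libraries as Smtn, at 0.451, 0.752, 0.774, 0.158, 0.115 and 0.197 CPM from 84 reads in all. Other genes of the list below 1 CPM did not run with Smtn. The smooth muscle marker Myh11, from 175 reads in all, was highest in libraries 4 and 5 and lowest in library 6. Cald1, from 19 reads in all, was also highest in libraries 4 and 5, and Tpm2, from 140 reads, in libraries 5 and 6. Acta2 and Cnn1, defining markers of contractile smooth muscle, had at most 3 reads in any library, and Myocd and Lmod1 had no row in the table. Smooth muscle markers summed to 1.83 to 4.61 CPM, lowest in library 1, where Smtn was highest.

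Dysf was the only ferlin gene to average 1 CPM or more. Myof, which encodes the related protein myoferlin, had 0.676, 0.520, 0.373, 0.105, 0.0862 and 0.197 CPM, and Fer1l5 at most 0.173 CPM. Of 27 names of the membrane repair list, 23 averaged 1 CPM or more. Of these, 3 spanned 2-fold and 2 spanned 4-fold, against 10.5% and 1.3% of all genes at that average. Their median was 1.23-fold. Syt7, a synaptotagmin that acts as calcium sensor for lysosome exocytosis, was low, at 1.87, 1.88, 2.07, 0.237, 0.172 and 0.253 CPM, from 58, 65, 72, 9, 6 and 9 reads. Cavin1, a coat protein of caveolae, stood at 5.44, 7.43, 6.40, 2.53, 4.20 and 3.29 CPM. Capn3, the muscle calpain, went the other way, at 0.837, 0.520, 1.55, 3.11, 2.18 and 2.42 CPM. The abundant members were steadier. Anxa2, which bridges membrane and actin, ranged 1.42-fold, its partner S100a10 1.37-fold and S100a11 1.32-fold. Skeletal muscle markers summed to 2.38 to 3.39 CPM, most of it Tnnt3, and Myod1, Myog, Myh2 and Myh4 had no row in the table.

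Akr1c18 ranged more widely than Akr1c13 and Akr1c12, its relatives of the same gene cluster with a row in the table. Akr1c6, Akr1c14, Akr1c19, Akr1c20, Akr1c21 and Akr1cl had no row. Akr1c13, another reductase of the cluster, stood at 11.2, 8.87, 9.21, 9.94, 8.97 and 8.29 CPM, a 1.35-fold range. Akr1c12 stood at 2.64, 3.04, 3.04, 2.35, 1.64 and 1.88 CPM, a 1.83-fold range with the same 3 highest libraries as Akr1c18. Among all genes averaging 1 CPM or more 10.5% spanned 2-fold, and of the 8 other aldo-keto reductases at that average 1 did. This was Akr1b8, an aldose reductase-like enzyme, at 17.0, 13.5, 14.2, 5.46, 6.90 and 7.84 CPM, with the same libraries high as for Akr1c18. The abundant Akr1a1, Akr1b10 and Akr1b3 ranged 1.07-fold, 1.1-fold and 1.1-fold. Cyp11a1, the enzyme that opens steroid synthesis by cleaving the side chain of cholesterol, was expressed at 91.4 to 111 CPM and ranged 1.22-fold. Star, which delivers cholesterol to it, stood at 6.47, 4.16, 7.31, 6.09, 6.32 and 3.37 CPM. Hsd17b11 was lowest in library 3, at 2.21 CPM, and highest in library 4, at 6.20 CPM. Hsd11b1, which regenerates active glucocorticoid, ran from 0.547 CPM (library 1) to 2.16 CPM (library 5). Star, Hsd17b11 and Hsd11b1 were the 3 of 19 genes of steroid synthesis and metabolism that spanned 2-fold, against 10.5% of all genes. Star did not on FPKM with the pseudocount of 0.1 added, and the median of the 19 was 1.32-fold. Hsd17b10, Tspo and Hsd17b12 were the most abundant of them by FPKM and ranged 1.11-fold, 1.12-fold and 1.32-fold. Cyp17a1 had at most 2 reads in any library and Hsd3b1 no row in the table. Steroidogenic cell markers summed to 105 to 142 CPM, most of it Cyp11a1, and Nr5a1, their defining factor, had at most 2 reads in any library. Among them Inha, the inhibin alpha chain, ran with Akr1c18, at 24.8, 23.7, 23.6, 7.91, 8.13 and 8.41 CPM. Whether any of these genes bears on the level of Akr1c18 was not tested.

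Gcnt4 was the most abundant of its 5-member family, and a relative had the same 3 highest libraries, though in another order. Gcnt2, which branches poly-N-acetyllactosamine chains into the I antigen, stood at 6.86, 8.27, 5.85, 1.61, 2.16 and 1.15 CPM, a 6.88-fold range. Gcnt1, the main core 2 enzyme of leukocytes, was lower, at 1.16, 1.71, 1.26, 1.24, 0.776 and 0.590 CPM. Both spanned 2-fold, although Gcnt1 did not on FPKM with the pseudocount of 0.1 added, and Gcnt3 and Gcnt7 had at most 1 read in any library. In the wider set of O-glycan enzymes and selectin ligands, 29 genes averaged 1 CPM or more. Of these, 3 spanned 2-fold and 0 spanned 4-fold, against 10.5% and 1.3% of all genes at that average. Their median was 1.30-fold. Chst2, a sulfotransferase of selectin ligands, was lowest where Gcnt4 was highest, at 12.0, 12.8, 12.4, 23.1, 24.9 and 27.4 CPM. Fut7, the fucosyltransferase that completes sialyl Lewis x, stood at 0.772, 1.79, 1.23, 2.43, 2.33 and 2.73 CPM, and Fut4 at 1.06 to 2.61 CPM. Selplg, the selectin ligand that carries core 2 glycans, ranged 1.27-fold, St3gal1, a sialyltransferase that competes for the same core, 1.29-fold, and Ptprc, which encodes CD45, 1.09-fold.

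Taken as a sum, B cell markers were not higher where Ebf1 was high. The other early B cell factors were nearly absent, with at most 1 read for Ebf2 and Ebf3 in any library and at most 0.343 CPM for Ebf4. Of the 5 partner genes averaging 1 CPM or more, 0 spanned 2-fold, although Id3 did with plain totals. Id2, an inhibitor of E proteins, stood at 599.9, 587, 604, 398, 417 and 430.4 CPM, and Id3, another inhibitor, went the other way, at 6.34, 7.63, 7.54, 10.2, 11.8 and 10.3 CPM. Tcf3, the E protein that cooperates with Ebf1 in B cells, ranged 1.17-fold, and Tcf12 1.14-fold. Tcf4, another of the partner genes, had the same 3 highest libraries as Ebf1, at 18.0, 16.2, 17.6, 11.1, 11.5 and 11.5 CPM, a 1.62-fold range. The 18 B cell markers in the table, of 20 names, summed to between 13.2 CPM (library 2, where Ebf1 was high) and 21.3 CPM (library 5, where it was low). Of the 6 that averaged 1 CPM or more, 4 spanned 2-fold, against 10.5% of all genes at that average. The 4, Cd79a, Cd79b, Cd22 and Pou2af1, were each lowest in library 1, 2 or 3 and highest in library 4, 5 or 6. Cd72, the most abundant marker by CPM, stood at 3.22, 4.08, 3.56, 2.74, 4.28 and 4.36 CPM. The part of these markers in the level of Ebf1 was not tested. Cd79b, a signalling chain of the B cell receptor and the most abundant marker by FPKM, stood at 1.83, 2.83, 3.15, 3.80, 3.74 and 3.35 CPM.

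A defining B cell gene, picked after its values were seen, was examined on its own. Pax5, the factor that commits cells to the B lineage, stood at 0.805, 0.434, 0.459, 1.19, 0.632 and 0.984 CPM, from 15 to 45 reads. Pax5 was highest in library 4, where Ebf1 was lowest, and lowest in library 2, but higher in library 1 than in library 5. In libraries 1, 2 and 3 the deposited FPKM was 0.369, 0.345 and 0.290 for Ebf1 and 0.0938, 0.0506 and 0.0540 for Pax5. The Ebf1 values rest on the long gene length given above. The part of B cell RNA in the level of Ebf1 was not tested. Vpreb1 and Rag2 had no row in the table, and Fcrla and Cr2 had at most 3 reads in any library. Rag1, from 24 reads in all, was lower in libraries 5 and 6, at 0.129, 0.173, 0.143, 0.132, 0.0575 and 0.0562 CPM in libraries 1 to 6. Stromal markers, another setting in which Ebf1 is known, summed to 1.66 CPM in library 6, the lowest, and 2.61 CPM in library 3, the highest, most of it Col1a1. Lum, the gene of the matrix protein lumican, was high where Ebf1 was high, at 0.644, 0.260, 0.516, 0.0791, 0.0575 and 0.0281 CPM from 53 reads in all. Pdgfrb, also on the stromal list, went the other way, at 0.129, 0.116, 0.0860, 0.501, 0.287 and 0.366 CPM from 53 reads in all. Pdgfra had no row in the table, and the part of stromal RNA in the level of Ebf1 was not tested.

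**Figure D4:**
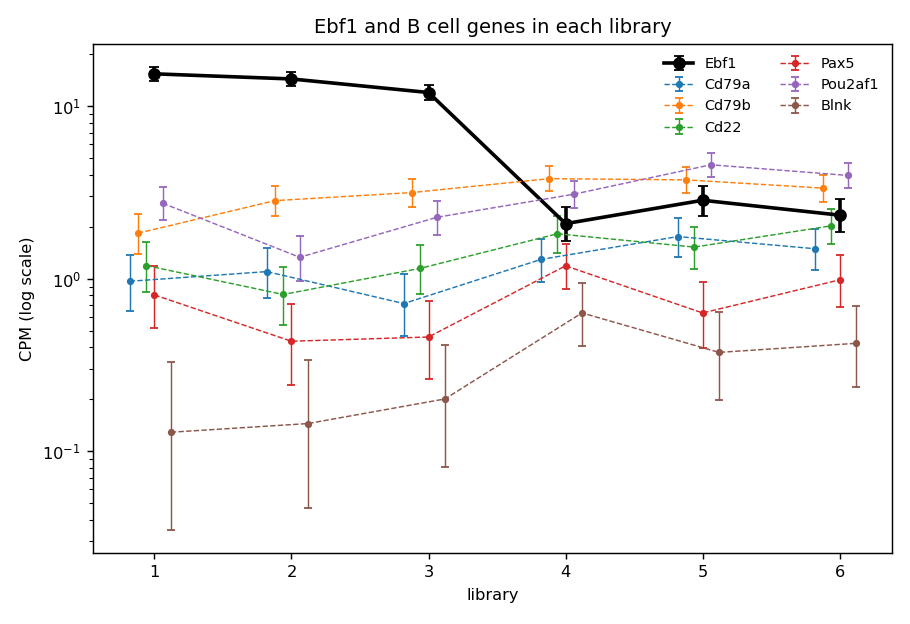
Level in CPM (vertical axis, log scale) of Ebf1 (black) and 6 B cell genes (colours, dashed) in libraries 1 to 6 (horizontal axis). Points are single libraries, bars are exact 95% counting intervals, lines join the values of 1 gene and imply no order. CPM is not divided by gene length, so heights of different genes do not compare as levels. On this scale Ebf1 lies above the 6 genes in libraries 1, 2 and 3 and among them in libraries 4, 5 and 6. In deposited FPKM, Ebf1 was 0.369, 0.345 and 0.290 in libraries 1, 2 and 3, and Cd79b was 1.43, 2.21 and 2.48. Cd79a and Pou2af1 also lay above Ebf1 there in FPKM, and Cd22, Pax5 and Blnk below it. The Ebf1 FPKM rests on a gene length of 39939 bases, against 5981 bases for its longest GENCODE M21 transcript. The place of Ebf1 in this order depends on that length. Cd79b is lowest in library 1 in CPM, and Cd72 is not drawn.

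**Figure D5:**
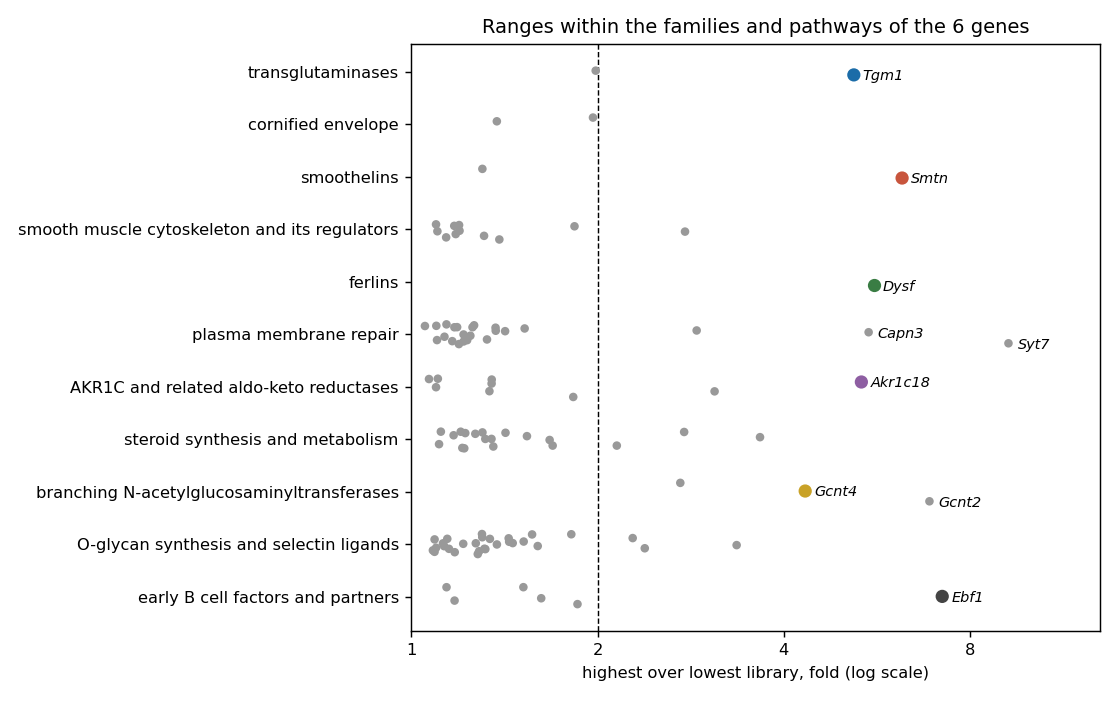
Highest over lowest library in fold (horizontal axis, log scale) for each gene averaging 1 CPM or more in 11 lists of families and pathways (vertical axis, with points spread for visibility). Large coloured points are the 6 genes, small grey points the other genes of each list, and the dashed line marks 2-fold. Most grey points lie between 1 and 2, and Syt7, Gcnt2 and Capn3 are the other genes at 4-fold or more.

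Reads of a gene can come from another gene that shares its sequence. Of the 50-base words in the GENCODE M21 transcripts, 0.581% of those of Akr1c18 also occurred in another gene, Akr1cl, and 0% of those of Ebf1. The share was 3.12% for Dysf, 4.18% for Tgm1, 9.46% for Smtn and 9.65% for Gcnt4, in each case with genes on the opposite strand of the same locus. Whether the counting used strand is not given in the sources used here, so reads of these 4 genes and of their opposite-strand partners cannot be told apart over that part of the sequence. The partners of Smtn and Dysf that are in the table, Gm11946 and Gm33024, had at most 4 reads and 1 read in any library.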

How the data were processed

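RNA was sequenced from 6 libraries of mouse CD4+ T cells, with TRIzol extraction and a VAHTS Universal V5 library kit (labels' protocols). HISAT2, HTSeq, fastp, DESeq2 and R 3.2.0 are named, with the assembly GRCm39 but without roles or settings, per the submitters' processing notes. The authors deposited raw read counts per gene and FPKM values per gene. FPKM equalled counts divided by a gene length and the library total within a relative 1.32e-08, so it is the same reads on another scale.

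Counts were scaled with TMM factors from 0.958 to 1.04 (edgeR 4.0.16 in R 4.3.3). Ranges are highest over lowest library, from log2 CPM values computed by adding a prior count of 2. Python 3.11.15 with numpy 2.4.6, pandas 2.3.3, scipy 1.17.1 and matplotlib 3.10.9 did the rest. No group could be formed, so no group mean, SD or test is given. A floor of 3 counts is 0.0791 to 0.0966 CPM, and PCR reads are not independent molecules.

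The 6 genes, the 11 gene lists and the 9 marker lists were chosen with earlier results of these data known. Genes named beside the 6 are the 3 nearest in pattern at a mean of 10 CPM or more (unnamed gene models and antigen receptor segments left out), list members ranging 2-fold or more at a mean of 1 CPM or more, the 3 most abundant of each list, and markers by a like rule. Others were named after their values were seen, such as Akr1c13, Akr1c12, Pax5 and genes at or near 0, and some genes that these rules name are not reported here. Alternatives were DESeq2 1.42.0 size factors, plain totals, FPKM with a pseudocount of 0.1, a prior count of 0.5, other minimum means, mitochondrially encoded genes left out and each library left out.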

Additional observations from a re-analysis of the deposited data

How the results depend on the processing

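No paired analysis was possible because the labels put no library in a group. Under 5 other settings and with each library left out in turn, the ranges of the 6 genes stayed above 3-fold. With the deposited FPKM values and a pseudocount of 0.1, the log2 ranges of Tgm1, Smtn, Dysf, Gcnt4 and Ebf1 were 2.23, 2.43, 2.18, 1.87 and 1.60, below their counting intervals. For Ebf1 that is 3.04-fold against 7.21-fold, since the pseudocount exceeds its FPKM in libraries 4, 5 and 6, and Ebf1 and Gcnt4 (3.65-fold) then fall under 4-fold. Gcnt4 also does so with plain totals, at 1.99 log2 units, where all genes shift by a median of -0.06 to 0.06. With libraries left out, the log2 ranges ran from 2.23 to 2.38 for Tgm1, 2.61 to 2.64 for Smtn, 2.33 to 2.48 for Dysf, 2.02 to 2.42 for Akr1c18, 1.95 to 2.11 for Gcnt4 and 2.69 to 2.85 for Ebf1. The lowest for Tgm1, without library 4, and for Akr1c18, without library 5, lay below their counting intervals, which began at 2.24 and 2.15. The counts of genes at 2-fold and 4-fold were 450 and 41 at a minimum mean of 5 CPM, and 6870 and 1509 with no minimum, against 279 and 24. Leaving out a library gave 248 to 274 and 16 to 24 genes, the 16 without library 1. At 3 counts a level is at most 0.0966 CPM, which limits what can be said of genes near 0.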

Other observations

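The labels put no library in a group, and whether the values fall into separate clusters is given here without explanation. Over genes with at least 20 reads in a pair, the chi-square per gene was 3.89 to 6.60 within libraries 1, 2 and 3 and within libraries 4, 5 and 6, and 54.1 to 67.4 for the other 9 pairs. Mitochondrially encoded genes took 2.02%, 1.90%, 1.98%, 2.45%, 2.37% and 2.41% of counts in libraries 1 to 6, and genes with at least 1 read numbered 17325, 17647, 17460, 17833, 17730 and 17799. The part of these in the levels of the 6 genes was not tested.

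Some genes related to the 6 by family or process had the same 3 highest libraries. They include Syt7, which ranged 9.23-fold, Gcnt2 at 6.88-fold, Inha at 3.13-fold, Akr1b8 at 3.09-fold and Sbsn at 1.97-fold. At an average of 1 CPM or more, 88 genes, or 0.764% of 11516, had this order and a range of at least 4-fold, among them Syt7, Gcnt2 and the 6 genes. Capn3 had the opposite order for its extremes, highest in library 4 and lowest in library 2.

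The length of 39939 bases behind the FPKM of Ebf1 is one of 342 in the table above 20000 bases. The Ebf1 level in FPKM is therefore several times lower than one taken per kilobase of its longest annotated transcript would be, while its ratios between libraries do not depend on that length.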
